A study of Mus musculus with 238 samples.

Results

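The olfactory bulb was compared with the other brain regions of the same untreated mice. The members were the 8 olfactory bulb libraries of control animals, among 238 libraries in the series, and the comparison set was the 96 libraries of other brain regions from the same 8 mice. All 16 mice of the study were C57BL/6JN, 19 months old at sampling, and carried no labelled genetic change. The series tests where in the brain 2 interventions change expression. There were 4 groups: females fed ad libitum (AL) or dietary restricted (aDR), and males injected behind the eye with saline (PBS) or with plasma of young mice (YMP). The controls used here were 4 AL females (mice 63, 66, 68 and 69) and 4 PBS males (mice 72, 76, 80 and 84), so sex, experiment and control treatment cannot be told apart. The PBS mice had received injections and the AL mice had not. Choroid plexus and liver libraries were left out, and each mouse gave between 9 and 13 other regions out of 13. CPM of single genes are counts scaled to library totals that were adjusted with TMM, a normalization between libraries. For each gene and mouse, the mean log2 CPM of the other regions was subtracted from the log2 CPM of the bulb. This difference was tested over the 8 mice.

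The bulb is the first relay of smell. Axons of olfactory sensory neurons in the nose enter it wrapped by olfactory ensheathing glia and synapse in glomeruli onto mitral and tufted cells, which are glutamatergic and send the signal to the cortex. Most of its neurons are GABAergic granule and periglomerular cells, some of which make dopamine, and new ones arrive through adult life as neuroblasts from the subventricular zone (SVZ). Bulk tissue was measured, so more cells of a type cannot be told apart from more RNA per cell.

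Total counts of the bulb libraries ran from 3.34 to 14.6 M (median 9.66 M, where M stands for mega) and those of the other regions from 1.96 to 32.4 M (median 8.55 M). Libraries stood apart in 2 ways. The bulb of AL mouse 68 held 86 counts over 39 Hox rows, which mark hindbrain and spinal cord, against 0 to 9 in the other bulbs, along with 37 counts of the glycine transporter gene Slc6a5 and 69 and 21 counts of the pituitary hormone genes Prl and Gh. Genes of the nasal mucosa ranged widely between bulbs, from 0 counts upward, as described with the sensory neurons. Leaving out AL mouse 68 gave 1549 genes past 2-fold and leaving out AL mouse 69, which had the highest CPM of Cyp2a5 and Sec14l3, gave 1566, against 1630 with all 8 mice.

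Promoter sequence is shown for 5 genes that stood high in the bulb, to let the start regions be compared. They are genes of sensory neurons, mitral and tufted cells, dopaminergic cells and ensheathing glia, with no interneuron transcription factor among them. Each line is the 250 bases upstream of the RefSeq start in GRCm38.p6 (the build named in the submitters' processing notes is GRCm38), read 5′ to 3′ on the gene's strand. Capitals mark a match on either strand to CCCNNGGG, an EBF-type motif, or to TGACGTCA, a cAMP response element, while TAATTA, a homeodomain core that does not overlap them, had no match in these 5. The S100a5 stretch lies at chr3:90608272-90608521 (+ strand), Cdhr1 at chr14:37098348-37098597 (- strand), Doc2g at chr19:4003135-4003384 (+ strand), Th at chr7:142899996-142900245 (- strand) and Frzb at chr2:80447397-80447646 (- strand).
S100a5: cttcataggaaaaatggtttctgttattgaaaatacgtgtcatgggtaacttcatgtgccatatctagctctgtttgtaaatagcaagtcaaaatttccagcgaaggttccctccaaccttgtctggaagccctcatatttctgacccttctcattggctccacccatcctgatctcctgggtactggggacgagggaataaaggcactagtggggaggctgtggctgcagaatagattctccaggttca
Cdhr1: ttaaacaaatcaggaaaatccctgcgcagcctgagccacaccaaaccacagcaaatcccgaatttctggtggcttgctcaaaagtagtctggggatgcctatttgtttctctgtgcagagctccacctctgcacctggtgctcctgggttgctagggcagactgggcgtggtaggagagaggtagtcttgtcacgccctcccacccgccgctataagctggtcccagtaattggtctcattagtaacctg
Doc2g: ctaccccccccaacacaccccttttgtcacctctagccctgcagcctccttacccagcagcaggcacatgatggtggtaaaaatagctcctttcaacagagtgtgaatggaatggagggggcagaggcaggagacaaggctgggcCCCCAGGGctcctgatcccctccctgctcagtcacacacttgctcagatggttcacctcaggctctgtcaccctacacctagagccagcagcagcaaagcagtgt
Th: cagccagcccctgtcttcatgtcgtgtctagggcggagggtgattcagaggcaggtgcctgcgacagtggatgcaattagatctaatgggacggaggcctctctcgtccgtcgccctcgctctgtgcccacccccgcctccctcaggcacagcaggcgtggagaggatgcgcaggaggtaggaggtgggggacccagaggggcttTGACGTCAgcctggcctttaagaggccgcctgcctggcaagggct
Frzb: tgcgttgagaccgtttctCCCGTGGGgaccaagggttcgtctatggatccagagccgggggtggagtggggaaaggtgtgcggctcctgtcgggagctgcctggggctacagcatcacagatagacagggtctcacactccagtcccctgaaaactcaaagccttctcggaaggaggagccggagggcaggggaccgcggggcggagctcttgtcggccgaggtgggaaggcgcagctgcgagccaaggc
Th held 1 match to TGACGTCA, 45 bases from the start. Doc2g and Frzb each held 1 match to CCCNNGGG, at 105 and 232 bases, and S100a5 and Cdhr1 held none of the 3 motifs in this window. Promoters of Frmd7, Tbx21, Dlx1 and Dlx2 were also searched and are not shown. Frmd7 held 1 match to CCCNNGGG, at 134 bases, and Tbx21, Dlx1 and Dlx2 held none of the 3 motifs. Of all 32851 RefSeq promoters of this length, 11.82% held CCCNNGGG, 1.55% TGACGTCA and 4.84% TAATTA. Among promoters of genes higher in the bulb past 2-fold, 20% held CCCNNGGG, among those of lower genes 20.7%, and among those of all genes tested 15.72%.

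Expression in the bulb differed from the rest of the brain over much of the genome. Of 15252 genes tested with limma, 12152 (79.7%) passed an adjusted p of 0.05, of which 5893 (38.6%) were higher and 6259 (41%) lower in the bulb. Since small differences also passed, the counts that follow use a stricter test, that the difference exceeds 2-fold (limma treat, adjusted p under 0.05, called "past 2-fold"). It called 1630 genes (10.7%), 1034 higher (6.78%) and 596 lower (3.91%), and the median difference over all genes tested was -0.03 on the log2 scale. The bulb was the highest of all sampled regions in every mouse for 770 genes (5.05%) and the lowest for 496 (3.25%), and 497 and 127 of these were also past 2-fold. Cerebellum, counted the same way in its 7 mice, was highest for 892 genes, and no other region exceeded 301. On library totals without TMM scaling the lowest count was 314 instead of 496. DESeq2 on the counts called 758 genes past 2-fold, 393 higher, and edgeR on the counts with the same mouse block 1773, and the named genes that lost their call in it are given with each group.

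The 15 genes that led the higher side, with at least 10 CPM in the bulb, were mostly known from sensory axons, mitral and tufted cells or bulb interneurons. S100a5, which encodes a calcium-binding protein of olfactory sensory neurons, led with a difference of 9.59 ± 0.17 (log2, SE, n = 8; limma adjusted p past 2-fold = 1.88e-12). Its CPM in the bulb was 186, 213, 105 and 232 in the AL mice and 200, 218, 195 and 138 in the PBS mice, while the mean over the other regions was at most 0.20 CPM in any mouse. No bulb came near the other regions. Ms4a15, a membrane-spanning 4A family gene, was next at 8.93 ± 0.15, with 96.1 to 133 CPM in the bulb. Omp, the olfactory marker protein of mature sensory neurons, followed at 8.79 ± 0.18. The remaining members of this group, with differences from 7.62 to 5.85, were Eomes, Cdhr1, Tbx21, Doc2g, Frmd7, Sp8, Scgn, Stoml3, Kcnk15, Th, Cpa6 and Adamts19. All but Th were highest in the bulb in every mouse. Several were near the floor elsewhere. At most 3 counts were found in 90 of the 96 other libraries for S100a5 and Kcnk15, and in 92 for Ms4a15 and Tbx21. For such genes the size, SE and order of the log2 differences depend on the prior count of 2 added before the log.

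**Figure D1:**
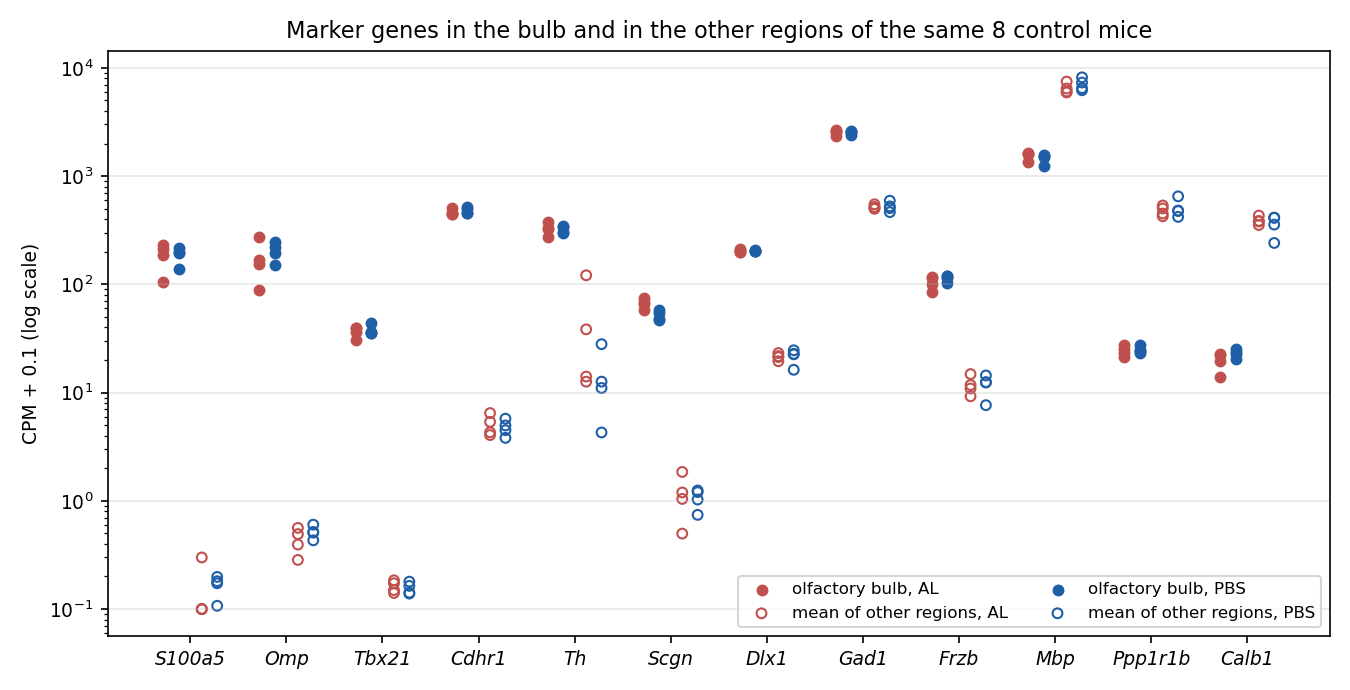
CPM plus 0.1 (log axis) of 12 genes in the bulb (filled points) and as the mean of the other regions of the same mouse (open points), AL mice in red and PBS mice in blue, 1 point per mouse. The bulb points lie above the open points for the first 9 genes and below them for Mbp, Ppp1r1b and Calb1, and the Th points of the other regions spread from 4.18 to 121 CPM.

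Transcription factors of bulb interneurons were high as a group. Here and in each list below, the shares over all genes tested are 6.78% higher and 3.91% lower past 2-fold. Of 14 of these factors measured, 13 were higher past 2-fold and 0 lower, with a median difference of 3.66. For 12 the bulb was the highest region in every mouse. Gsx2, the remaining gene of that list, did not pass the filter on low counts. Dlx1, a homeodomain factor of GABAergic neurons, stood at 199 to 210 CPM over the 8 bulbs and at 16.2 to 24.5 CPM in the mean of the other regions, a difference of 4.93 ± 0.06. The 8 bulbs lay within a narrow range, well clear of the other regions. Its neighbours in the family were close to it, with 5.03 for Dlx2, 4.57 for Dlx5 and 4.54 for Dlx6. Sp8, a zinc finger factor of periglomerular interneurons, had the largest difference of the list (6.91 ± 0.11), at 171 to 216 CPM in the bulb. The related Sp9 was at 3.91, Meis2 at 3.69, Pbx3 at 3.40 and Tshz1 at 3.15. Pax6, which specifies dopaminergic periglomerular cells, was higher by 2.49 ± 0.05 but not the highest region, since cerebellum averaged 87.0 CPM against a bulb median of 54.4. Etv1, used as a marker of granule and periglomerular cells, was the member not called, at 0.72 ± 0.05, with 186 to 224 CPM in the bulb and a cerebellum mean of 484 CPM. Dlx1, Dlx5, Dlx6 and Meis2 kept their direction but were not called with DESeq2.

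The SVZ, which supplies new interneurons, was the next region for several of these factors. Dlx2 averaged 83.8 ± 5.7 CPM in the bulb and 26.6 ± 9.8 CPM in the SVZ (SD, n = 8 each). Dlx1, Dlx5, Sp8 and Sp9 also had their next highest level in the SVZ, at means of 73.8, 34.0, 38.4 and 54.7 CPM. For Dlx6, Meis2 and Pbx3 it was the caudate putamen.

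Genes of GABA synthesis, transport and interneuron peptides were higher in most cases. Of 18 measured, 13 were higher past 2-fold and 3 lower, with a median of 1.98. Gad1, the main GABA-synthesising enzyme, was at 2339 to 2672 CPM in the bulb and at 465 to 593 CPM elsewhere, a difference of 2.57 ± 0.06, and the ranges did not overlap. Its partner Gad2 was higher by 1.62 and the vesicular GABA transporter Slc32a1 by 1.71. Calretinin (Calb2), which marks granule and periglomerular cells, was higher by 3.47 ± 0.10, and secretagogin (Scgn) by 6.90 ± 0.14. Calbindin (Calb1) went the other way, with 13.7 to 25 CPM in the bulb against 241 to 432 CPM elsewhere (-3.61 ± 0.10). Sst and Pvalb, which mark the main interneuron classes of the cortex, were lower by 3.11 ± 0.08 and 2.71 ± 0.12, written as sizes of log2 differences below 0. Lhx6, the transcription factor of those cortical classes, had at most 4 counts in any bulb library and a difference of -3.98 ± 0.24. With DESeq2, Gad2, Slc32a1, Calb2, Vip and Npy were not called.

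Of the peptide genes in this list, Trh, Vip and Npy are described with their highest other regions. Trh, thyrotropin-releasing hormone, had 78.0 to 103 CPM in the bulb and a difference of 5.82 ± 0.12, although the hypothalamus averaged 122 CPM. Vip was higher by 2.83 and Npy by 2.37, with visual and motor cortex as their highest other regions. Synpr, a synaptic vesicle protein, was higher by 2.79 and highest in the bulb in every mouse. Penk, which encodes enkephalins, shows how the scale matters: its mean log2 difference was 1.12 ± 0.06 and not called past 2-fold (adjusted p = 0.304), while its mean CPM over the other regions (451 to 645) exceeded every bulb value (272.5 to 368), with the caudate putamen at a mean of 3199 CPM. Without PBS mouse 76 the Penk difference was 1.19 and was called.

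Dopamine genes did not move as a list. Of 11 measured, 3 were higher past 2-fold and 0 lower, with a median of -0.01, and Pitx3 and Foxa2 were too low to test. Th, tyrosine hydroxylase, which makes the dopamine precursor, had bulb levels of 334, 326, 275 and 378 CPM in AL and 304, 345, 337 and 296 CPM in PBS mice. The means of the other regions were 14, 12.5, 121 and 38.3 CPM and then 10.9, 4.18, 12.5 and 27.9 CPM, so every bulb was above every comparison value. The difference was 6.06 ± 0.12 (limma adjusted p past 2-fold = 5.22e-12). Pons, with a mean of 256 ± 435 CPM (SD, n = 7), was the region with the highest level outside the bulb, and varied widely between mice. The dopamine transporter Slc6a3 was higher by 5.03 ± 0.19 on the log2 scale at 14.8 to 23.4 CPM in the bulb, yet the mean of the other regions was 113 CPM in AL mouse 68 and 25.5 in AL mouse 69. Nr4a2, a transcription factor of dopaminergic neurons, was higher by 1.62, and lost its call with DESeq2, with edgeR (adjusted p = 0.36 with the mouse block) and against the median of the other regions (1.57). The other steps of dopamine handling were not called past 2-fold. Ddc, the enzyme that completes dopamine, was at -0.47, Gch1, which makes the cofactor of Th, at 0.62, and the vesicular transporter Slc18a2 at -0.21.

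Mitral and tufted cell genes held several of the largest differences. Of 15 measured, 10 were higher past 2-fold and 0 lower, with a median of 2.41. Tbx21, a T-box factor of these cells, was at 30.8 to 43.8 CPM in the bulb and at most 0.08 CPM as the mean of the other regions of any mouse (7.19 ± 0.15). Eomes, another T-box factor of the same cells, was higher by 7.62 ± 0.18, with cerebellum the next region at 23.1 CPM. Cdhr1, a protocadherin-related gene, had bulb levels of 450, 459, 448 and 512 CPM in AL and 458, 514, 498 and 456 CPM in PBS mice, against 3.72 to 6.37 CPM elsewhere, and a difference of 7.21 ± 0.09. The bulbs of the 8 mice were thus nearly level for Cdhr1. Doc2g, whose promoter is shown with that of Cdhr1, was higher by 6.99 ± 0.08, with the SVZ next at 16.3 CPM. Shisa3, Lbhd2 and Barhl2 were higher by 4.68, 4.28 and 3.85, and reelin (Reln), an extracellular glycoprotein, by 2.41.

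Glutamatergic genes that the bulb shares with other projection neurons were mixed. The vesicular glutamate transporter Slc17a7 was higher by 2.17 ± 0.16 on the log2 scale (361 to 435 CPM), although motor cortex averaged 669.5 CPM, and it was not called against the median of the other regions (0.99). Slc17a6, its counterpart in thalamus and brainstem, was at -0.43, with a thalamus mean of 802 CPM. Tbr1, a T-box factor of both mitral cells and deep cortex, was at 0.71 and not called, and was at -0.46 against forebrain regions alone. Spp1, osteopontin, was higher by 1.48 on the log2 scale, with 96.7 to 119 CPM in the bulb. Its mean CPM over the other regions ran from 54.5 to 150 and was above the bulb in every mouse but AL mouse 68. The Spp1 call was lost with edgeR on the counts (adjusted p = 0.215 with the mouse block). With DESeq2, Reln, Slc17a7, Lbhd2, Barhl2 and Spp1 were not called.

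**Figure D2:**
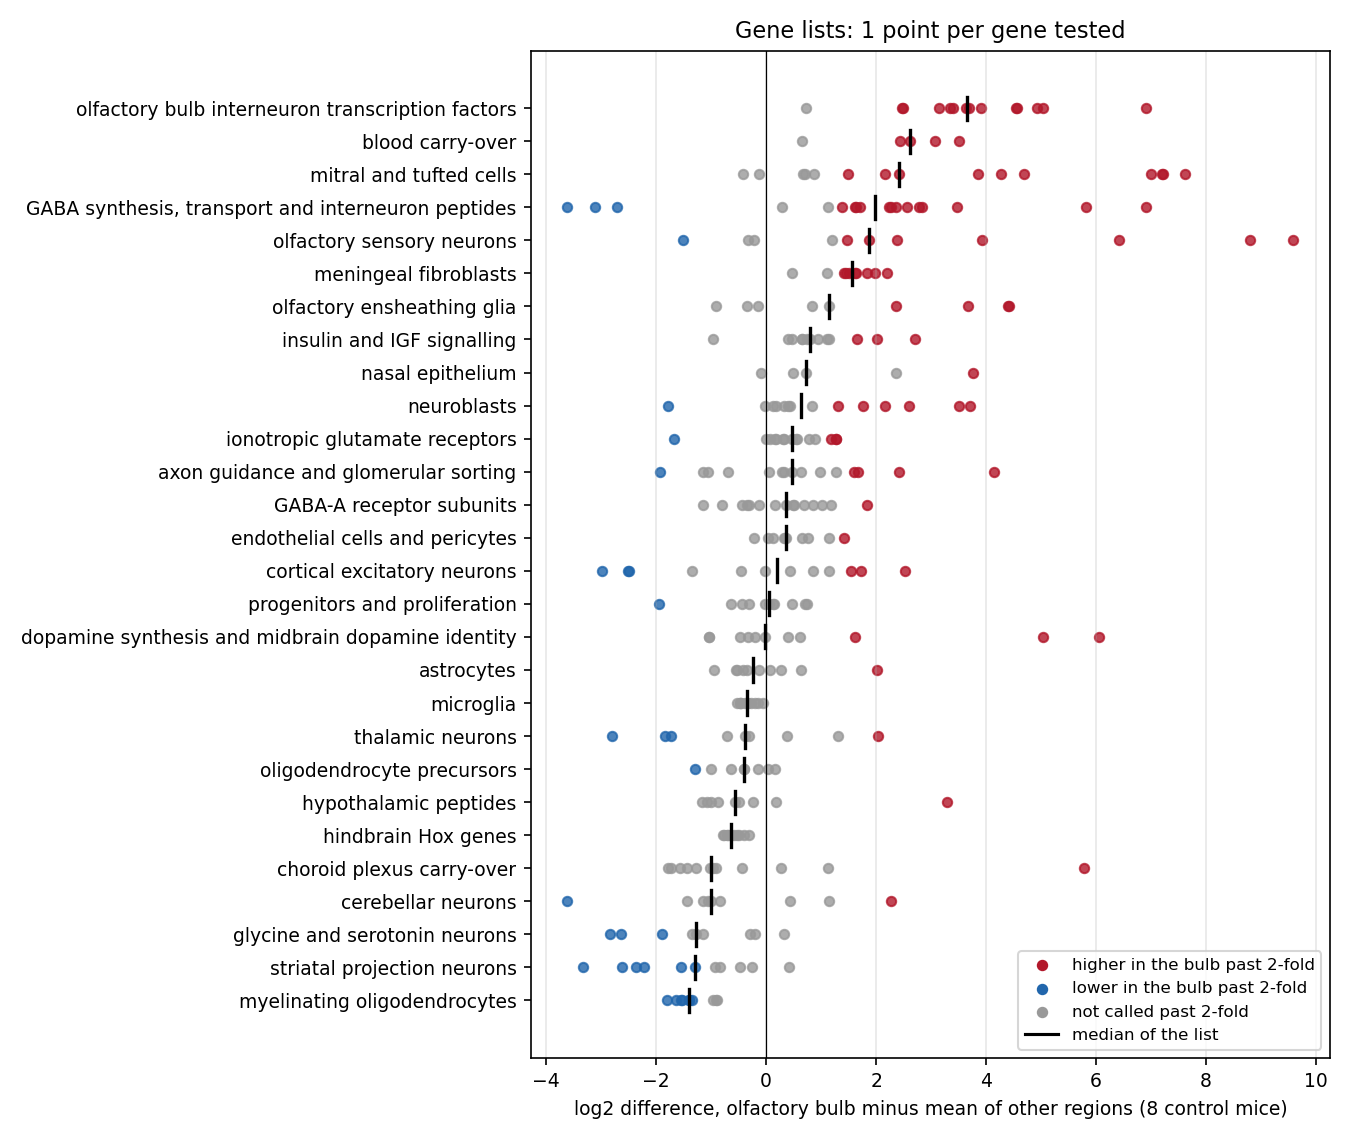
Log2 difference, bulb minus mean of the other regions over 8 control mice, for every gene tested of the lists described here (1 point per gene; red, higher past 2-fold; blue, lower past 2-fold; grey, not called; black bar, list median). Interneuron transcription factors have the highest median, 3.66, and myelinating oligodendrocyte genes the lowest, -1.41.

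Neuroblast genes were partly higher and proliferation genes were not. Of 14 neuroblast genes, 6 were higher past 2-fold and 1 lower (median 0.64). Doublecortin (Dcx), a microtubule protein of migrating neurons, stood at 181, 200, 226 and 207 CPM in the bulbs of AL mice and at 144, 160, 153 and 155 CPM in PBS mice. The other regions averaged 14.1 to 18.3 CPM, the difference was 3.70 ± 0.07, and the bulb was the highest region in every mouse. The SVZ averaged 24.6 ± 7.7 CPM (SD, n = 8). Sox4 was higher by 2.59, Igfbpl1 by 3.50 and the polysialyltransferase St8sia4 by 2.16, while its relative St8sia2 was lower (-1.79 ± 0.17). Igfbpl1 was higher in the SVZ than in the bulb, with 15.6 ± 8.5 CPM in the SVZ and 5.80 ± 1.44 CPM in the bulb. Sox11, also a neuroblast factor, was at 0.40 and not called, and Robo2, a Slit receptor, was higher by 1.32 but not when forebrain regions alone were compared (1.01). With DESeq2, Cd24a, Igfbpl1, St8sia2 and Robo2 were not called, Cd24a being at 1.76 in the main test.

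Of 11 genes of progenitors and dividing cells, 0 were higher past 2-fold and 1 was lower, with a median of 0.06. The proliferation marker Mki67 had 0.26 to 2.04 CPM in the bulb and 0.92 to 1.59 CPM elsewhere, so the ranges overlapped, and its difference was 0.13 ± 0.19 (adjusted p = 0.534). Its counts were at most 23 in a bulb library. Top2a, a topoisomerase of dividing cells, was at 0.48 ± 0.18. Thbs4, thrombospondin 4, was the gene that was lower, at -1.94 ± 0.22, with corpus callosum highest at 45.7 CPM. It was not called without the SVZ among the other regions (-1.63).

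Olfactory ensheathing glia, which wrap the sensory axons, gave 4 of 9 measured genes higher past 2-fold and 0 lower, with a median of 1.14. Fabp7, a fatty acid-binding protein of these and of radial glia, was at 357 to 590 CPM in the bulb and 22 to 31 CPM elsewhere (4.42 ± 0.07). Prss56, a serine protease, was higher by 4.39 ± 0.13 and Frzb, a secreted Wnt inhibitor, by 3.67 ± 0.09. Frzb had bulb levels of 102, 115, 85 and 117 CPM in AL and 102, 120, 119 and 114 CPM in PBS mice, with no other region mean above 25.3 CPM. AL mouse 68 was the lowest bulb for Fabp7 and for Frzb. Vtn, vitronectin, which pericytes also make, was at 1.14 ± 0.06 and not called with all mice, but was called without AL mouse 68 (1.19) or without PBS mouse 72 (1.19). Prss56 was not called with DESeq2.

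Olfactory sensory neuron genes were present in every bulb, although the cell bodies lie in the nose. Of 11 measured, 7 were higher past 2-fold and 1 lower, with a median of 1.86. Omp was at 152, 168, 88.6 and 275 CPM in the AL bulbs and at 195, 223, 248 and 152 CPM in the PBS bulbs, against at most 0.50 CPM elsewhere. Stoml3, a stomatin-like protein of sensory cilia, was at 46.9, 57.9, 28.3 and 135 CPM and at 59.3, 78.4, 70.0 and 48.3 CPM, with a difference of 6.41 ± 0.23. AL mouse 68 was lowest and AL mouse 69 highest for Omp, Stoml3 and S100a5. Cnga2, Rtp1 and Cngb1 ranged more widely between bulbs. The channel subunit Cnga2 ranged from 1.46 to 23.9 CPM (3.92 ± 0.37), the receptor transport protein Rtp1 from 0.84 to 11.3 CPM (2.37 ± 0.33), and the channel subunit Cngb1 from 0.77 to 5.43 CPM (1.86 ± 0.27), the highest value of each being AL mouse 69. The Cngb1 call was lost without any 1 of AL mice 63, 66 and 69 or PBS mice 72, 76 and 80, with differences from 1.61 to 1.92. Gnal, the olfactory G protein subunit that striatal neurons also use, was lower (-1.51 ± 0.08, caudate putamen mean 922 CPM), and Adcy3, the adenylyl cyclase of the chain, was at -0.34. Stoml3, Gnal, Rtp1, Cngb1 and the G protein subunit Gng13, otherwise higher by 1.47, were not called with DESeq2, nor Gnal against the median of the other regions (-1.11).

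Nasal mucosa genes spanned a wider range over the bulbs than the sensory neuron genes. Cyp2a5, a cytochrome P450 of olfactory mucosa, had 1, 0, 39 and 391 counts in the AL bulbs and 118, 352, 410 and 58 in the PBS bulbs. Its difference was 3.76 ± 0.68 and was called, and was 2.95, still called, without AL mouse 69. Without the filter on low counts it was not called (adjusted p = 0.0653). Sec14l3, a lipid transfer protein of airway and nasal epithelium, ranged from 0 to 47.7 CPM over the bulbs (2.36 ± 0.68) and was not called with all mice but was without AL mouse 66 (2.93). The keratin Krt8 ranged from 0 to 4.87 CPM and was not called. Cyp2g1, Bpifa1, Reg3g and Krt5 were not tested, and Cyp2g1 and Bpifa1 reached 287 and 218 counts in single bulbs. In AL mouse 66, with 0 counts of Cyp2a5, Omp had 2588 counts and S100a5 3271. The part of nasal tissue in the sensory neuron levels was not tested.

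**Figure D3:**
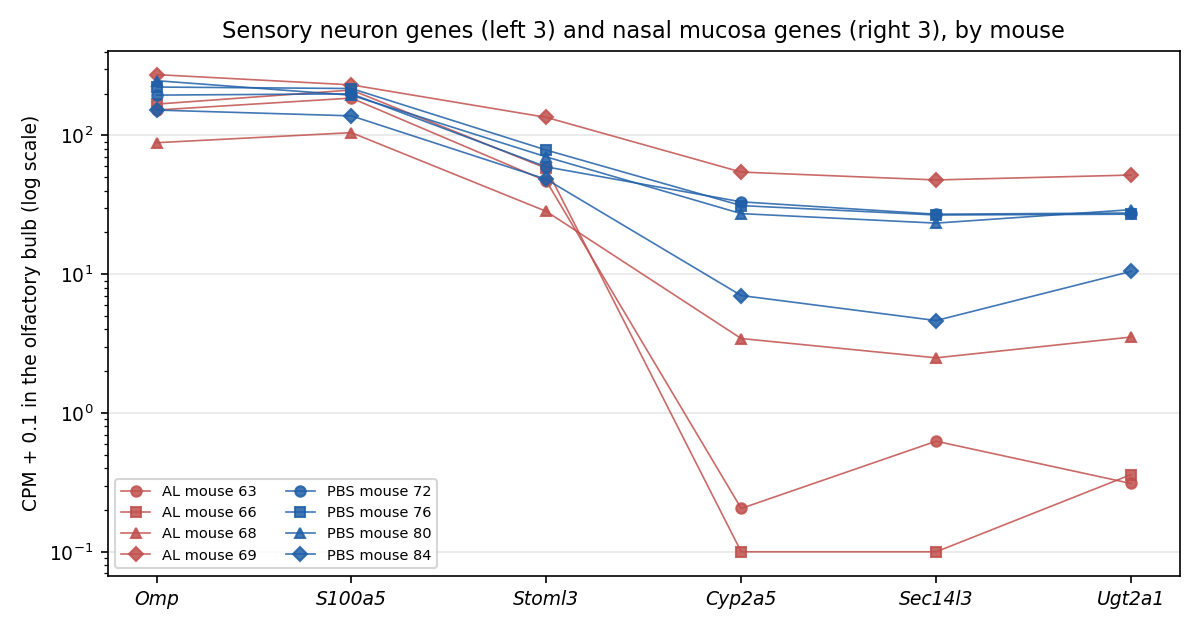
CPM plus 0.1 (log axis) in the olfactory bulb of each control mouse for 3 sensory neuron genes (Omp, S100a5, Stoml3) and 3 nasal mucosa genes (Cyp2a5, Sec14l3 and Ugt2a1, the last added after its values were seen). Lines join the genes of a mouse: sensory neuron genes stay between 28.3 and 275 CPM, and nasal genes run from 0 to 54.4 CPM.

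Odorant receptor transcripts were few. The table has 1133 rows of this family, whose near-identical copies make single values uncertain, and 26 passed the filter on low counts. Of these, 7 were higher past 2-fold (Olfr112, Olfr116, Olfr115, Olfr32, Olfr113, Olfr110 and Olfr111, named after their values were seen) and 0 lower. These 7 averaged 0.016 to 0.12 CPM elsewhere. The filter was made by region, so rows this low elsewhere could pass it through the bulb libraries in which they are high. The share of 7 in 26 was thus partly set by the filter and says nothing of the family as a whole. Olfr112 had the largest difference, 4.12 ± 0.16, at a mean of 5.03 CPM in the bulb and 0.12 CPM elsewhere. All but Olfr32 carry numbers close together in the family's naming. Summed over the family, the bulb held 64.9 to 217 CPM and the other regions averaged 35.3 to 108 CPM. The bulb was above the mean of its own mouse's other regions in all mice but AL mouse 68, but below the highest of those regions in 5 of the 8 mice, as in PBS mouse 80, where that region held 549 CPM and the bulb 217.

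Genes that guide axons and sort glomeruli gave 4 of 15 higher past 2-fold and 1 lower, with a median of 0.48. Prokineticin 2 (Prok2), which draws neuroblasts into the bulb, was at 5.90 to 9.46 CPM in the bulb and 0.22 to 0.77 CPM elsewhere (4.14 ± 0.14). Sema3a, a repellent of sensory axons, was higher by 1.67 and the ephrin receptor Epha5 by 1.61. Slit1, a repellent ligand, was lower (-1.94 ± 0.11). Kirrel3, an adhesion molecule that sorts sensory axons, was at 0.99 and not called past 2-fold. Sema3a and Epha5 were not called with DESeq2, nor Sema3a against the median of the other regions (1.22).

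In insulin and insulin-like growth factor signalling, 3 of 13 genes were higher past 2-fold, 0 were lower, and the median was 0.81. Igf1, the growth factor, had bulb levels of 63.3, 63.9, 53.7 and 67.6 CPM in AL and 51.4, 64.9, 65.5 and 64.6 CPM in PBS mice, against 10.7 to 13.3 CPM elsewhere. It was higher by 2.72 ± 0.07 and highest in the bulb in every mouse, with thalamus next at 35.1 CPM. Igfbp2, a secreted binding protein, was higher by 2.03, and the adaptor Irs1 by 1.65. The receptors Igf1r and Insr were each at 0.66, and the adaptor Irs2 was at -0.97 and lowest in the bulb in every mouse. Igfbp2 was not called with DESeq2.

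Among transmitter receptors, of 15 GABA-A receptor subunits, 1 was higher past 2-fold (Gabra5, 1.84 ± 0.10) and 0 lower. The 1 of 15 is close to the 6.78% higher over all genes tested. Of 15 ionotropic glutamate receptor genes, 3 were higher (Gria4 1.27, Grik3 1.27 and Grin2b 1.19) and Grik4 was lower (-1.67 ± 0.07). The Grin2b call was lost without AL mouse 66 (1.17) or 68 (1.14) or PBS mouse 72 (1.14) or 80 (1.18), and against forebrain regions alone Grin2b was at 0.49 and Grik3 at 1.15, neither called. The 4 higher receptor genes were not called with DESeq2.

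On the lower side, the 10 leading genes with at least 10 CPM elsewhere had differences from -4.61 to -3.79. Prdm8, a transcription factor of the PRDM family, had at most 5 counts in any bulb and 14.4 to 27.5 CPM in the mean of the other regions (-4.61 ± 0.22). Ecel1, an endopeptidase-like protein, was at -4.50 with a hypothalamus mean of 174 CPM. Mal2, a membrane trafficking protein, was measured well above the floor in every bulb (4.42 to 17.2 CPM) and was at -4.17 ± 0.21. Next came the prolactin receptor Prlr (-4.08), the sodium channel subunit Scn4b (-4.01), Lhx6 (-3.98), Lypd1 (-3.92), the neuropeptide Y receptor Npy2r (-3.91), the zinc receptor Gpr39 (-3.87) and Caln1 (-3.79). Lypd1 and Gpr39 were lowest in the bulb in every mouse. The region in which these 10 genes were highest differed, from hippocampus and cortex to corpus callosum and cerebellum.

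Myelin genes were lower throughout. Of 10 measured, 7 were lower past 2-fold and 0 higher, with a median of -1.41. All 10 were below 0 at an adjusted p of 0.05, against 41% of all genes tested. Myelin basic protein (Mbp) was at 1247 to 1643 CPM in the bulb and 5927 to 8177 CPM elsewhere (-1.63 ± 0.07). Opalin was at -1.81, Mog at -1.54 and Mag at -1.41. Against forebrain regions alone Mog (-1.27) and Mag (-1.08) were not called. Bcas1, of newly forming oligodendrocytes, was lower (-1.29 ± 0.07) but not against forebrain regions (-0.96) or on library totals without TMM (-1.19), and it was the 1 gene called of 8 for oligodendrocyte precursors. With DESeq2, Mbp, Mog, Mag and Bcas1 were not called.

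Genes that mark neurons of other regions were low to different degrees. Of 11 striatal projection neuron genes, 6 were lower past 2-fold and 0 higher (median -1.29). Ppp1r1b, a dopamine signalling phosphoprotein of these neurons, had 21.0 to 27.7 CPM in the bulb and 420 to 650 CPM elsewhere (-2.37 ± 0.06), with the peptide gene Tac1 at -2.61 and the receptor Drd2 at -1.54. Drd2 lost its call without AL mouse 63 (-1.49) and without the SVZ (-1.20). Among 12 genes of cortical excitatory neurons, 3 were lower, among them the transcription factors Bhlhe22 (-2.98) and Neurod6 (-2.48). In the same list 3 were higher, among them Mef2c (1.73) and Cux2 (1.54), and Mef2c (1.03) was not called against forebrain regions alone. Neither was called with DESeq2. In the thalamic list, 3 of 9 were lower and 1 higher, with Prkcd at -1.74 and the zinc finger gene Zic1 at 2.04, neither called with DESeq2. Choline acetyltransferase (Chat) had at most 2 counts in any bulb, which put its mean CPM at least 28.4-fold lower than that of the other regions, a ratio of means on the linear scale, while the mean log2 difference, which depends on the prior count, was -2.63 ± 0.23, and the choline transporter Slc5a7 was at -2.84. Against the median of the other regions, in place of their mean, Chat (-1.40), Slc5a7 (-1.70), Drd2 (-1.47) and Prkcd (-0.89) were not called, nor was Neurod6 (-1.54) with the 6 regions every mouse has.

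Hox, hypothalamic peptide and cerebellar genes had few calls, and the list of glycine, serotonin and acetylcholine neurons had more. The shares over all genes tested were 6.78% higher and 3.91% lower past 2-fold. None of 11 Hox genes was called (median -0.63). Summed over all Hox rows, bulbs held 0 to 7.74 CPM and medulla libraries 44.8 to 296 CPM, and Hoxa5 had counts in the bulb of AL mouse 68 alone. In the list of glycine, serotonin and acetylcholine neurons 3 of 9 were lower, and Slc6a5 was at -1.15 with 0 to 5 counts in bulbs other than that of AL mouse 68. Of 9 hypothalamic peptide genes, galanin (Gal) alone was called, higher by 3.30 ± 0.19, at 10.8 to 19.0 CPM in the bulb and a hypothalamus mean of 106 CPM. Of 9 cerebellar genes, 1 was higher on the log2 scale (Cbln1, 2.26) and 1 lower (Calb1). Cbln1 was at 12.1 to 14.7 CPM in the bulbs and at 3.63 to 23.4 CPM as the mean of the other regions. That mean was above the bulb in every mouse but PBS mouse 76, which had no cerebellum library. Gal and Cbln1 were not called with DESeq2.

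Microglia and astrocyte genes gave 1 call past 2-fold between them. Of 11 microglia genes 0 were called past 2-fold, although 10 were lower at an adjusted p of 0.05 (median -0.35). Over all genes tested, 41% were lower at that adjusted p. P2ry12 was at -0.14 and C1qb at -0.53. Of 10 astrocyte genes, the GABA transporter Slc6a11 was higher by 2.02 ± 0.04 and the rest were not called past 2-fold, including Gfap (-0.54) and Aldoc (-0.95), which was lowest in the bulb in every mouse. Slc6a11 was not called with DESeq2.

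Genes of the membranes and blood around the bulb were higher as well. Of 10 meningeal fibroblast genes, 8 were higher past 2-fold and 0 lower, with a median of 1.56. Their summed level was 2315 to 3465 CPM in the bulbs and 885 to 1681 CPM as the mean elsewhere. Ptgds, prostaglandin D synthase, was higher by 1.62, the retinoic acid enzyme Aldh1a2 by 1.99, the transporter Slc6a13 by 1.501 and Dcn, decorin, by 1.44, and entorhinal cortex was the highest other region for each. Collagen Col1a1 was higher by 2.20 ± 0.14, with 117 CPM in PBS mouse 76 against 17.2 to 46.0 CPM in the other bulbs. The call for Dcn was lost with edgeR on the counts (adjusted p = 0.226 with the mouse block), and with DESeq2 neither it nor Ptgds, Aldh1a2, Slc6a13 or Col1a1 was called.

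For blood, 4 of 5 genes were higher, at a summed 19.8 to 127 CPM in the bulbs against 6.71 to 40.5 CPM elsewhere. The globins Hba-a1 and Hbb-bs, whose copies are near-identical to their neighbours, were higher by 3.08 ± 0.32 and 3.50 ± 0.30, and Alas2 was at 0.65. Among 10 endothelial and pericyte genes, the tight junction gene Cldn5 was called, higher by 1.42, and Pecam1 was at 0.12. Of 12 choroid plexus genes, 1 was called, the water channel Aqp1 (5.78 ± 0.15), at 32.7 to 43.8 CPM in every bulb. Ttr, the defining choroid plexus gene, was at 0.18 to 6.54 CPM in the bulbs, against 4.85 to 2799 CPM as the mean of the other regions. Aqp1 and Hba-a1 were not called with DESeq2. The part that meninges and blood had in other results was not tested.

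The difference between the bulb and the other regions was alike in AL females and PBS males in number of calls. AL mice alone gave 1366 genes past 2-fold (8.96%), 874 higher (5.73%) and 492 lower (3.23%). The PBS mean gave 1362 (8.93%), 899 higher (5.89%) and 463 lower (3.04%). In both, 787 genes were higher and 397 lower. A test of the difference between the groups with limma called 0 genes (0%) at an adjusted p of 0.05, with 0.163 as the smallest adjusted p. Of the 15252 genes tested, 1872 had an unadjusted p under 0.05, a larger share than the 0.05 that no difference would give. The test called 1 gene without the filter on low counts and 2 without PBS mouse 72. This does not show that the groups were the same.

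The 5 genes with the smallest p for AL against PBS are given as values. Cdkn1a, the cell cycle inhibitor p21, was at 142, 159, 166 and 153 CPM in AL bulbs and at 102, 123, 94.5 and 98.5 CPM in PBS bulbs. It was at 16.4 to 20.3 CPM elsewhere. A gap between the groups follows from the choice of genes by this p. Its difference from the other regions was 3.32 in AL and 2.65 in PBS mice (adjusted p = 0.163), and it was highest in the bulb in every mouse. The respiratory chain genes Ndufa4, Ndufs5 and Ndufb9 were at 0.18, -0.14 and -0.25 in AL and at -0.27, -0.55 and -0.62 in PBS mice. Bpifb3, of a family of secreted proteins of the airways, was at 2.06 in AL and 6.02 in PBS mice, with 0 to 2.37 CPM and 9.44 to 35.7 CPM in the bulbs.

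**Figure D4:**
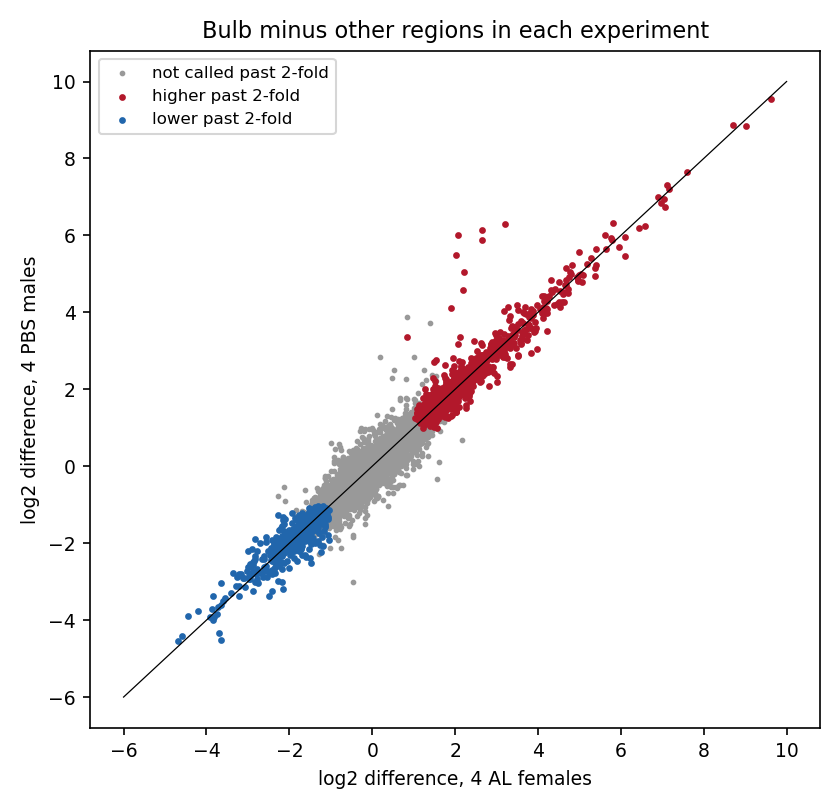
Log2 difference, bulb minus other regions, in the 4 AL females (horizontal axis) against the 4 PBS males (vertical axis), 1 point per gene tested, with the line of equal values. Points called past 2-fold over all 8 mice (red, higher; blue, lower) lie along the line from -4.7 for Prdm8 to 9.6 for S100a5, apart from a few higher in PBS mice such as Bpifb3 (2.06 and 6.02).

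The same fit was made in the 8 treated mice, 5 aDR females and 3 YMP males, which are separate animals. It called 1275 of 15163 genes past 2-fold (8.41%), 854 higher (5.63%) and 421 lower (2.78%). Of genes tested in both sets, 1199 were called in both, which is 74.52% of the 1609 called in controls and 94.04% of those called in treated mice, and all 1199 had the same direction. S100a5 was at 9.06, Cdhr1 at 7.20, Th at 6.01, Dlx1 at 4.94 and Mbp at -1.64 in the treated mice. The bulb libraries of treated mice went down to 0.606 M counts (YMP mouse 73). No test of treatment was made here.

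Against single regions, the number of genes past 2-fold was lowest for anterior hippocampus, at 1357 (8.9%), followed by posterior hippocampus at 1450 (9.51%) and entorhinal cortex at 1530 (10%). It was highest for medulla, at 2503 (16.4%), then cerebellum at 2171 (14.2%) and caudate putamen at 2131 (14%). The number of mice ranged from 6 to 8 between these tests, so the counts are not strictly alike. Higher genes outnumbered lower ones against 12 regions, and the SVZ was the exception, with 856 higher and 905 lower of 1761 (11.5%).

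**Figure D5:**
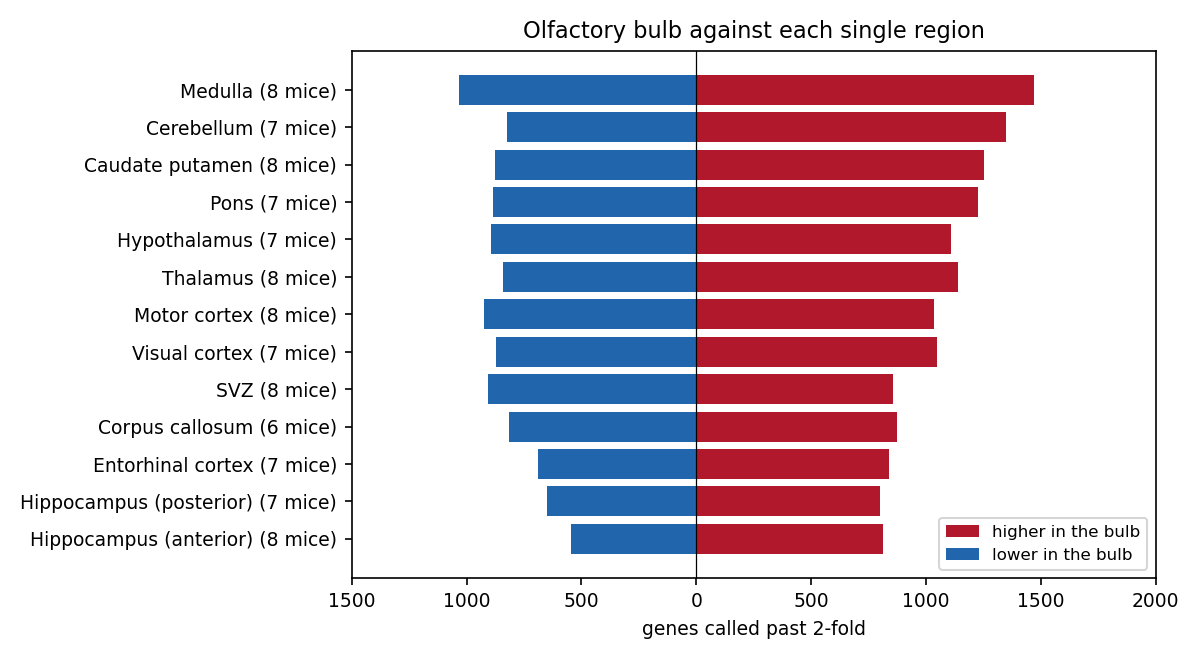
Genes past 2-fold higher (red, to the right) or lower (blue, to the left) in the bulb against each other region, with the number of mice that have both. Medulla is at the top with 1469 higher and 1034 lower, and anterior hippocampus at the bottom with 813 and 544.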

How the data were processed

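The values used were the read counts per gene that the authors deposited as 1 table of 21076 gene rows and 238 libraries (537 rows without a count, 0 unused columns). Per the labels' protocols, RNA came from homogenised tissue by RNeasy, cDNA was made by Smart-Seq2 and libraries by Nextera XT without strand, so values of overlapping and antisense genes are uncertain. Per the submitters' processing notes, Trim Galore 0.3.7, STAR 2.5.3a, DESeq2 and GRCm38 were used, and the counting program and annotation are not given in the sources used here. Reads carried no labelled molecular identifiers, so count limits cover counting error only.

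Libraries were grouped by the labels. After filterByExpr by region (minimum count 10, minimum total 15) and TMM in edgeR 4.0.16 (R 4.3.3), 104 control libraries gave log2 CPM with a prior count of 2. Each mouse's difference was fitted in limma 3.58.1 with a trend, as the equal-weight mean of AL and PBS mice, with Benjamini-Hochberg adjustment over all genes, for any difference and past 2-fold (treat). CPM of single genes used TMM-scaled totals. A fold against a group with at most 3 counts in each library is a lower bound, set against the group's mean CPM at 3 counts.

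The mouse number is the same animal in all regions and pairs libraries by design. Deviations from region means correlated at 0.06 within a mouse and -0.02 between mice. The 28 bulb pairs differed beyond counting noise (chi-square per degree of freedom at least 1.80 over genes with at least 20 counts), and each was kept. On simulated data (14836 genes) the fit past 2-fold recovered 100% of 100 genes changed by log2 2 and 71% of 100 changed by log2 1.5, with 0 unchanged genes called. Changed genes were drawn from those with a mean count above 20, and the other regions were set to vary little. Unchanged genes had no true bulb difference, so the 2-fold threshold nearly fixed the 0 in advance. The simulation therefore gives no error rate for the real libraries. The alternatives were library totals without TMM, size factors of DESeq2 1.42.0, no filter, a prior count of 0.5, other sets or the median of other regions, edgeR and DESeq2 on the counts, and each mouse left out.

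Genes were named by rule: the 15 highest and 10 lowest past 2-fold with at least 10 CPM in the higher group and 1 direction in 8 mice, the first 4 of each list, up to 3 further called members per direction, and the 5 smallest p for AL against PBS. Some named genes are not reported here. Members and lists were chosen with earlier results of these data known. Promoters come from RefSeq (GRCm38.p6); 113 of 142 named genes had an entry, and Omp, Dlx5, Dlx6 and Calb2 did not.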

Additional observations from a re-analysis of the deposited data

Results flagged for a closer look

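In groups of 4 mice, a highest or lowest mouse that stood apart from the others of its group, relative to the group's range (Dixon's ratio above its 95% critical value), was found in 12 of 286 group and gene combinations, and chance gives about 14.3. Values are log2 differences of that mouse, bulb minus other regions, with the range of the others of its group. AL mouse 69 stood apart for Rtp1 (4.18, others 1.02 to 1.29), Krt8 (3.31, others -1.16 to -0.84) and Adcy3 (0.16, others -0.72 to -0.58). AL mouse 68 stood apart for Hoxa5 (2.26, others -0.99 to -0.77) and Slc6a5 (2.12, others -1.91 to -1.63). Kirrel3 was at 0.74 in AL mouse 63 (others 0.99 to 1.04), and P2ry12 at -0.0029 in AL mouse 66 (others -0.22 to -0.20). In the PBS group, mouse 84 was apart for Sp9 (3.52, others 4.04 to 4.13) and Cyp2a5 (4.02, others 5.82 to 6.11). PBS mouse 76 was apart for Igfbp2 (0.9995, others 1.87 to 2.03), Tac1 (-4.65, others -2.24 to -1.78) and Ttr (-5.85, others -2.31 to -1.65).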

How the results depend on the processing

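The mouse block is built into the main design, since differences are taken within a mouse. With edgeR on the counts, 1773 genes were past 2-fold with the mouse as replicate block and 1702 with no replicate block, against 1630. DESeq2 with the block called 758, of which 393 were higher; the cause was not tested. In the leave-one-out fits the count ran from 1549 to 1694. The number of genes lowest in the bulb in every mouse was 314 instead of 496 on library totals without TMM, and the AL against PBS test called 1 gene without the filter and 2 without PBS replicate 72 (range 0 to 2 over single mice left out).

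For the 142 named genes, 2562 of 2697 values kept direction and call, 99 lost the call (56 genes, most of them under DESeq2), 13 gained it and 23 changed sign. Against forebrain regions, signs changed for Slc18a2 (0.18), Tbr1 (-0.46), Mki67 (-0.0056), Ndufa4 (0.047), Hoxa5 (0.30) and Slc6a5 (0.43). Against the median of the other regions they changed for Slc18a2 (0.27), Tbr1 (-0.18), Ttr (0.61), Ndufa4 (0.0197), Hoxa5 (0.34) and Slc6a5 (0.52). Mki67 was at -0.093 with the 6 regions every mouse has and between -0.036 and 0.26 with single mice left out, and Ndufa4 at 0.053 without TMM. edgeR gave Hoxa5 1.99 and Slc6a5 1.37 with the block and 1.97 and 1.39 without, and DESeq2 gave Penk -0.77, Tbr1 -1.41, Mki67 -0.18 and Krt8 -0.81. None of these was called; the cause was not tested. Counts of 3 or fewer per library limit what can be said of genes at the floor (0.36 CPM in the bulb).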
